A study of Homo sapiens with 4 samples.

Results

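The genes described here encode the interleukins, the chemokines, the tumour necrosis factor (TNF) superfamily and their receptors. They were taken by symbol (IL, CCL, CCR, CXCL, CXCR, XCL, TNFSF and TNFRSF names), with 1 interleukin gene left out by the selection rule. In all, 120 genes matched, and 115 of them, measured by 337 of the 15154 array features, had a value on at least 2 arrays and were used. Of the 115, 97 had values on all 4 arrays, 10 on 3 and 8 on 2. The other 5 were not used: CCL19, CXCL3, IL12RB2 and IL22RA1 had a value on 1 array, and TNFRSF10A on 0.

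OCI-Ly10 is an established line of human diffuse large B-cell lymphoma. All cells were electroporated, with either a pool of siRNAs against MYC at 4 uM or a control treatment, and the RNA of both was set against each other on 4 arrays with 2 channels. For 2 arrays, sampled at 8 h and 24 h, the control was 4 uM of a nonspecific siRNA that targets Renilla luciferase. For the remaining 2, sampled at 6 h and 24 h, control cells were electroporated with no siRNA. MYC encodes a transcription factor that drives cell growth, and the series asked which genes depend on it.

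Every value below is a log2 ratio of MYC siRNA over control cells unless another unit is named, so a value below 0 stands for a lower level in the MYC siRNA cells. The sign is likely, not stated: it comes from the dyes in the labels (Cy5 for MYC siRNA on every array, with 0 dye swaps). The ratios give no level of a transcript, so neither the B-cell identity of the line nor the abundance of a cytokine could be checked. Scanner intensities were not used here, and the signal over background is unknown. In a bulk culture, fewer cells of a type and less RNA per cell cannot be told apart.

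MYC itself measured -0.94 and -0.35 against control siRNA at 8 h and 24 h, and -1.26 and -1.03 against no siRNA at 6 h and 24 h. It lay below 0 on all 4 arrays, least on the control siRNA array at 24 h. The mean of -0.89 ± 0.39 (SD, n = 4) corresponds to 53.8% of control, with an adjusted p of 0.0240 by limma. Without the no siRNA array at 6 h or that at 24 h it was -0.77 or -0.85 and did not pass (adjusted p = 0.0718 and 0.0738, limma). Over the whole table, 785 of 8509 rows passed an adjusted p of 0.05 (9.23%), 530 of them lower (6.23%) and 255 higher (3.0%).

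Interleukins are secreted proteins that carry signals between leukocytes, and most act through receptor chains that switch on JAK kinases and STAT transcription factors. Chemokines direct cell movement by binding receptors coupled to G proteins. Ligands of the TNF superfamily bind receptors that recruit TRAF adaptors or death-domain proteins, and thereby control survival, NF-kappaB activity and cell death. In germinal centres and lymphomas these systems govern where B cells settle, which T-cell help they receive and whether they survive.

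The test was passed by 5 of 115 genes (4.35%), a smaller share than the 9.23% of all rows. CXCL6 and IL2 fell, while IL13, IL18 and TNFRSF11B rose. The remaining 110 genes did not pass. At an unadjusted p under 0.05, 31 of 115 (27.0%) stood out, against 31.7% of all rows. The median of the 115 means was 0.05, beside 0.01 over all rows, and 75 of the 115 means (65.2%) lay above 0, against 51.5% of all rows.

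**Figure D1:**
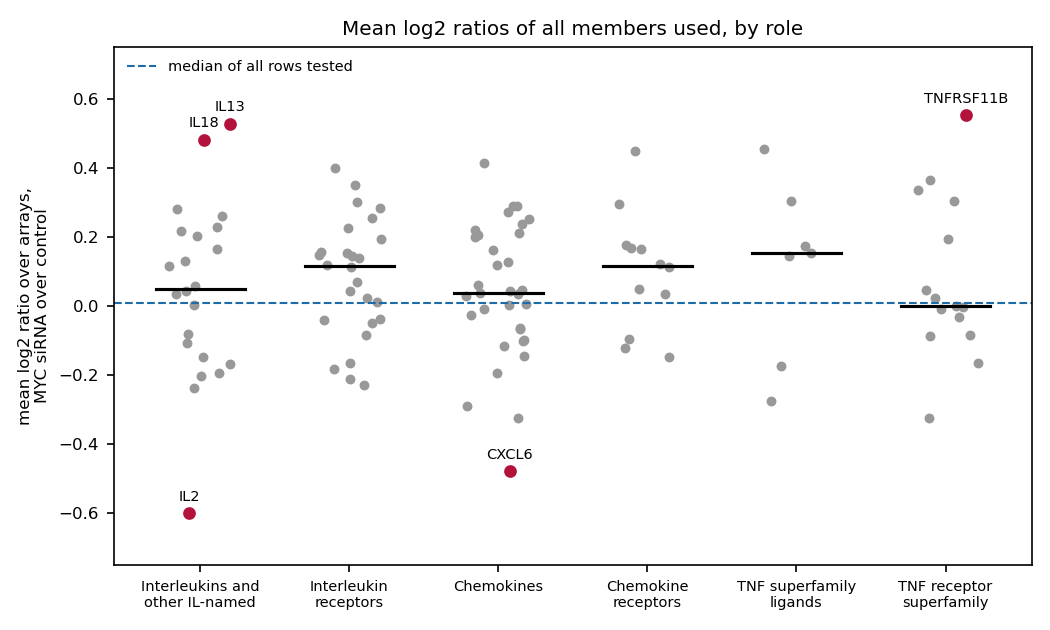
Mean log2 ratio of MYC siRNA over control for each of the 115 genes (points, over 2 to 4 arrays), by role, with the median of each role as a bar and the median of all rows as a dashed line. Red points are the 5 genes past the test: IL2 and CXCL6 lie lowest, and TNFRSF11B, IL13 and IL18 highest.

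CXCL6, a chemokine that attracts neutrophils through CXCR1 and CXCR2, gave -0.52 and -0.43 against control siRNA at 8 h and 24 h, and -0.56 and -0.40 against no siRNA at 6 h and 24 h. All 4 arrays lay below 0 in a narrow band. The mean was -0.48 ± 0.075 (SD, n = 4), or 71.8% of control (adjusted p = 0.0281, limma).

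IL2, the T-cell growth factor, gave -0.63 and -0.46 against control siRNA at 8 h and 24 h, and -0.31 and -1.01 against no siRNA at 6 h and 24 h. It too was below 0 on every array, deepest on the no siRNA array at 24 h. Its mean was -0.60 ± 0.30 (SD, n = 4), or 66.0% of control (adjusted p = 0.0301, limma). CXCL6 and IL2 each rested on a single feature with values.

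TNFRSF11B, the gene of osteoprotegerin, a secreted decoy receptor for TNFSF11 and TNFSF10, gave 0.52 and 0.60 against control siRNA at 8 h and 24 h, and 0.76 and 0.34 against no siRNA at 6 h and 24 h. Every array lay above 0. The mean was 0.55 ± 0.17 (SD, n = 4), or 147% of control (adjusted p = 0.0281, limma).

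IL13, a cytokine of type 2 helper T cells, gave 0.22 and 0.25 against control siRNA at 8 h and 24 h, and 0.76 and 0.89 against no siRNA at 6 h and 24 h. All arrays were above 0, and both arrays against no siRNA lay above both arrays against control siRNA. The mean was 0.53 ± 0.35 (SD, n = 4), or 144% of control (adjusted p = 0.0417, limma).

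IL18, a cytokine of the interleukin-1 family that induces interferon gamma, had no value on the control siRNA array at 24 h. The other arrays gave 0.36 at 8 h against control siRNA, and 0.58 and 0.51 at 6 h and 24 h against no siRNA. All 3 lay above 0, with a mean of 0.48 ± 0.11 (SD, n = 3), or 140% of control (adjusted p = 0.0374, limma). IL18 was read by 1 feature, while IL13 and TNFRSF11B had 2 each.

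None of the 5 calls outlasted the removal of an array. With any 1 of the 4 arrays left out, 0 of the 5 genes passed in limma, although the mean of each kept its sign. In these fits 18 to 25 of the members had an unadjusted p under 0.05, for which the share of all rows is not given here. Table-wide, the rows called then numbered between 0 and 162.

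The 250 bases before the annotated start of 4 genes are printed to show the sequence next to the results. CXCL6 and IL2 were taken as changed genes with a promoter sequence at hand, and CXCL10 and TNFSF10 as genes whose arrays differed. All sequences are from RefSeq on GRCh38.p14, written 5' to 3' on the strand of the gene. CXCL6 is chr4:73836428-73836677 (plus strand), IL2 is chr4:122456726-122456975 (minus strand), CXCL10 is chr4:76023498-76023747 (minus strand) and TNFSF10 is chr3:172523431-172523680 (minus strand). Capitals mark matches to the kappaB consensus or to the core of the interferon-stimulated response element.
CXCL6: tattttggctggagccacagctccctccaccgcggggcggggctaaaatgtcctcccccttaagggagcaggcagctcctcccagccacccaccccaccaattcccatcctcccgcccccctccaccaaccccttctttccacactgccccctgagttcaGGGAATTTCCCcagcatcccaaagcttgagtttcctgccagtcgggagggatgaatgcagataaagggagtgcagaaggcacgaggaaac
IL2: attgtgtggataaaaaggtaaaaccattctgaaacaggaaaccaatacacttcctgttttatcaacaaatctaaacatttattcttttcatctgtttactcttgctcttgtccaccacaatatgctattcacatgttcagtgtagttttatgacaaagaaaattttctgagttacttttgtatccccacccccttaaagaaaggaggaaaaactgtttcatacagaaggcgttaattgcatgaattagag
CXCL10: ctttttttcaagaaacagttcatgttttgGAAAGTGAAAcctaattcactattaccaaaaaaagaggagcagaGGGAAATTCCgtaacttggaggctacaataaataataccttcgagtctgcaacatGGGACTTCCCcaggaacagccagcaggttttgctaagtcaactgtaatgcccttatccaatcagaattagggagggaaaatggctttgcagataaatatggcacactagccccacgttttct
TNFSF10: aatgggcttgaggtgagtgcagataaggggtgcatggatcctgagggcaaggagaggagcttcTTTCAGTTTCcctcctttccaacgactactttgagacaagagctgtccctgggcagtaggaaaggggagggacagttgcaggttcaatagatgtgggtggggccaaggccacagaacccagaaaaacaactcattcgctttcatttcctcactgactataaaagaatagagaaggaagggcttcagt

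These windows were searched on both strands for 3 motifs. They were the E-box CACGTG, the site bound by MYC with MAX, the kappaB consensus, and the core of the interferon-stimulated response element (TTTC blocks 2 bases apart). CXCL6 had 2 overlapping kappaB matches, from 90 to 81 and from 89 to 80 bases before the start. CXCL10 had kappaB matches at 177 to 168 and 122 to 113 bases, and the interferon core at 221 to 212. TNFSF10 had the interferon core at 187 to 178 bases, and the IL2 window held none of the 3 motifs.

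Promoters were matched for 90 of the 115 genes. The kappaB consensus occurred in 19 of the 90 (21.1%), against 9.57% of 27305 promoters of the same length, and the interferon core in 10 (11.1%) against 3.07%. The letters CACGTG occurred in 0 of the 90, against 6.49% of all promoters. A match is a description of sequence, and no match says only that the letters are not in this window.

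Among the 22 interleukins and other IL-named genes, 1 fell, 2 rose and 19 did not pass, with a median of 0.05. The 3 called were IL2, IL13 and IL18 (13.6%, against 9.23% of all rows). IL6, a growth factor of plasma cells and many lymphomas, gave 0.53 and -0.08 against control siRNA at 8 h and 24 h, and 0.05 and 0.16 against no siRNA at 6 h and 24 h. Its mean of 0.16 rested mainly on the 8 h array (adjusted p = 0.332, limma).

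IL4, which drives B-cell class switching, gave 0.43 on both arrays against control siRNA but -0.27 and -0.07 at 6 h and 24 h against no siRNA. Its arrays thus split by kind of control around a mean of 0.13 (adjusted p = 0.515, limma). IL36RN, an antagonist of interleukin-36 receptors, was below 0 on all 4 arrays, from -0.32 to -0.12, with a mean of -0.24 (adjusted p = 0.104, limma).

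Of the 26 interleukin receptor genes, 0 passed in limma and 7 had an unadjusted p under 0.05 (26.9%, against 31.7% of all rows). Their median was 0.12. Of the 25 with 4 values, 11 lay above 0 on every array and 4 below. Over the 97 genes of all roles with 4 values, 26 were above 0 on every array (26.8%, against 19.4% of all such rows) and 17 below (17.5%, against 23.3%).

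Receptors for IL-4 and IL-13 share the chain encoded by IL4R. IL4R gave 0.24 and 0.73 against control siRNA at 8 h and 24 h, and 0.07 and 0.35 against no siRNA at 6 h and 24 h. All were above 0, with a mean of 0.35 (adjusted p = 0.0827, limma). The control siRNA array at 24 h had values for only 2 of the 6 features of IL4R, so its array means do not rest on the same features. Those 2 features had values on every array and gave 0.41, 0.73, 0.25 and 0.67 in the same order. Their mean was 0.52 and passed (adjusted p = 0.0174, limma), while 2 of the 6 features had means below 0.

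The partner chains were also above 0 on all arrays. IL13RA1, the signalling partner, ranged from 0.01 to 0.24 with a mean of 0.14. IL13RA2, which binds IL-13 as a decoy, gave 0.20, 0.24 and 0.18 on the first 3 arrays but 0.98 against no siRNA at 24 h (mean 0.40, adjusted p = 0.0952, limma). In the test of the mean over arrays with all features averaged, IL13 passed and IL4 and these receptor chains did not. With time and control as terms, IL4R and IL13RA2 passed too (adjusted p = 0.00931 and 0.00761, limma). In that setting 22 of 97 members (22.7%) and 29.1% of all rows passed, and IL13RA2 rested on 1 feature with values.

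The 3 chains of the IL-2 receptor all had positive means, opposite in sign to IL2. IL2RA, the high-affinity chain, ranged from 0.04 to 0.25 with a mean of 0.15 (adjusted p = 0.246, limma). IL2RB, the signalling chain, ranged from 0.11 to 0.21 with a mean of 0.16. IL2RG, the chain shared with several other interleukin receptors, had values of 0.28 and 0.26 at the early times, and of 0.00 on both arrays at 24 h.

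Receptors of other B-cell cytokines gave small differences. IL21R, the receptor of a T follicular helper cytokine, ranged from 0.10 to 0.23, and each of its 6 features had a mean above 0. The subunits of the interleukin-10 receptor, IL10RA and IL10RB, had means of 0.23 and 0.19, with all arrays above 0 (adjusted p = 0.141 and 0.196, limma). IL7R, a receptor of lymphoid precursors, was below 0 on each array, from -0.30 to -0.06, with a mean of -0.21 (adjusted p = 0.141, limma). IL1RAP, the accessory chain of the interleukin-1 receptor, ranged from 0.10 to 0.70 with a mean of 0.30 (adjusted p = 0.112, limma).

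IL6R and its partner IL6ST, the gp130 chain, had means of -0.05 and 0.04, with arrays on both sides of 0. IL18R1 was below 0 on all arrays, from -0.21 to -0.09, while its ligand gene IL18 rose. The 2 features of IL18R1 had values on 1 kind of control each, so neither spans both. IL18RAP, from the same receptor, had arrays on both sides of 0 and a mean of -0.04.

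**Figure D2:**
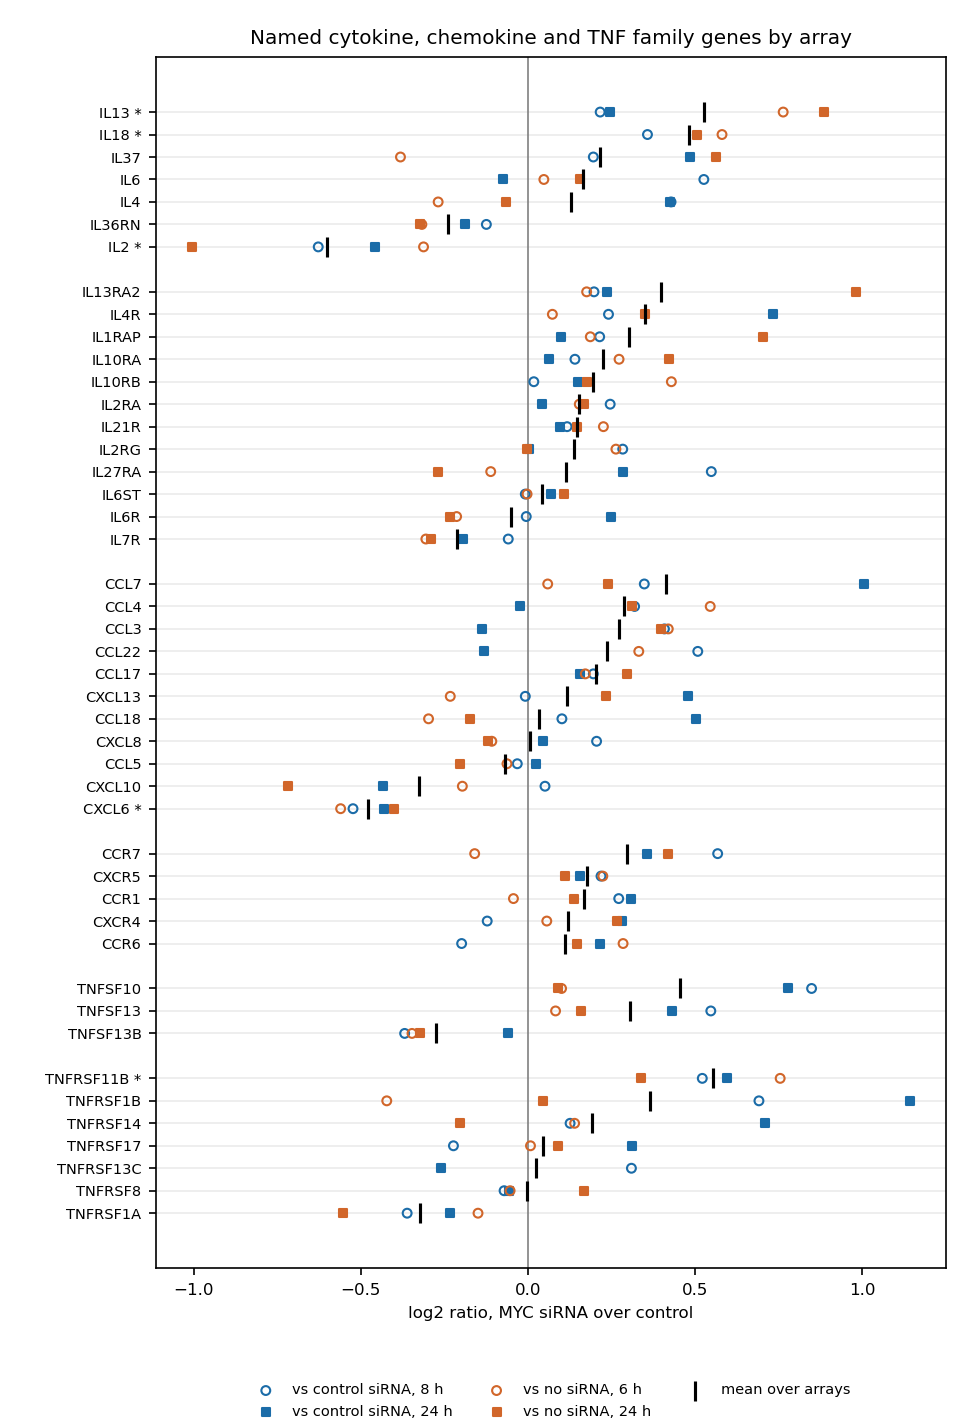
Log2 ratio of MYC siRNA over control (x axis) for the genes named by rule, grouped by role, with 1 symbol per array and the mean as a bar; an asterisk marks the 5 genes past the test. The blue symbols (against control siRNA) of IL4, TNFSF10 and TNFRSF1B lie to the right of the orange ones (against no siRNA), while those of IL13 lie to the left.

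Of 33 chemokine genes, 1 fell (CXCL6), 0 rose and 32 did not pass in limma, while 10 had an unadjusted p under 0.05. Their median was 0.04. Of the 27 with 4 values, 7 lay above 0 on all arrays (25.9%, against 19.4% of all such rows) and 5 below (18.5%, against 23.3%).

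CXCL6 belongs to a cluster of neutrophil-attracting genes. CXCL5, its closest relative, was also below 0 on all arrays, at -0.13 and -0.32 against control siRNA and -0.23 and -0.48 against no siRNA (early time first), with a mean of -0.29. CXCL8, the gene of interleukin-8, lay on both sides of 0, from -0.12 to 0.21, around a mean of 0.01 (adjusted p = 0.969, limma). CXCL1 was above 0 on all arrays with a mean of 0.13, so signs differed within the cluster.

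CCL3 and CCL4 encode chemokines that activated B cells secrete to attract T cells and monocytes. CCL4 gave 0.32 and -0.02 against control siRNA at 8 h and 24 h, and 0.55 and 0.31 against no siRNA at 6 h and 24 h. CCL3 gave 0.41 and -0.14 against control siRNA, and 0.42 and 0.40 against no siRNA, at the same times. Both were at or below 0 on the control siRNA array at 24 h alone.

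The means of CCL4 and CCL3 were 0.29 and 0.27 (adjusted p = 0.107 and 0.141, limma). By feature, 7 of the 8 of CCL4 and 4 of the 4 of CCL3 had means above 0. Both genes have near-identical copies that array features may not tell apart, so these values are uncertain as to the copy. CCL5, which shares a receptor with them, had a mean of -0.07.

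CXCL10 recruits CXCR3-bearing T cells and is induced by interferon. It gave 0.05 and -0.43 against control siRNA at 8 h and 24 h, and -0.20 and -0.72 against no siRNA at 6 h and 24 h. The 24 h array was the lower of each pair. The mean of -0.32 did not pass (adjusted p = 0.119, limma), although 7 of 7 features had means below 0.

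CXCL9 and CXCL11 bind the same receptor as CXCL10. CXCL9 was below 0 on all arrays but near it, with a mean of -0.06, while CXCL11 was above 0 on all arrays with a mean of 0.25. The 3 ligands of CXCR3 thus did not share a sign.

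CCL17 and CCL22 attract CCR4-bearing T cells. CCL17 gave 0.20, 0.16, 0.17 and 0.30 on the 4 arrays, all above 0 (mean 0.20, adjusted p = 0.136, limma). CCL22 had 3 values, 0.51 and -0.13 against control siRNA at 8 h and 24 h, and 0.33 against no siRNA at 6 h. CCL7, a monocyte attractant, gave 0.35, 1.01, 0.06 and 0.24, highest on the control siRNA array at 24 h (mean 0.41, adjusted p = 0.0952, limma). These array means mixed features, and the 1 feature of CCL7 with 4 values gave 0.36, 1.01, -0.23 and 0.24.

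**Figure D3:**
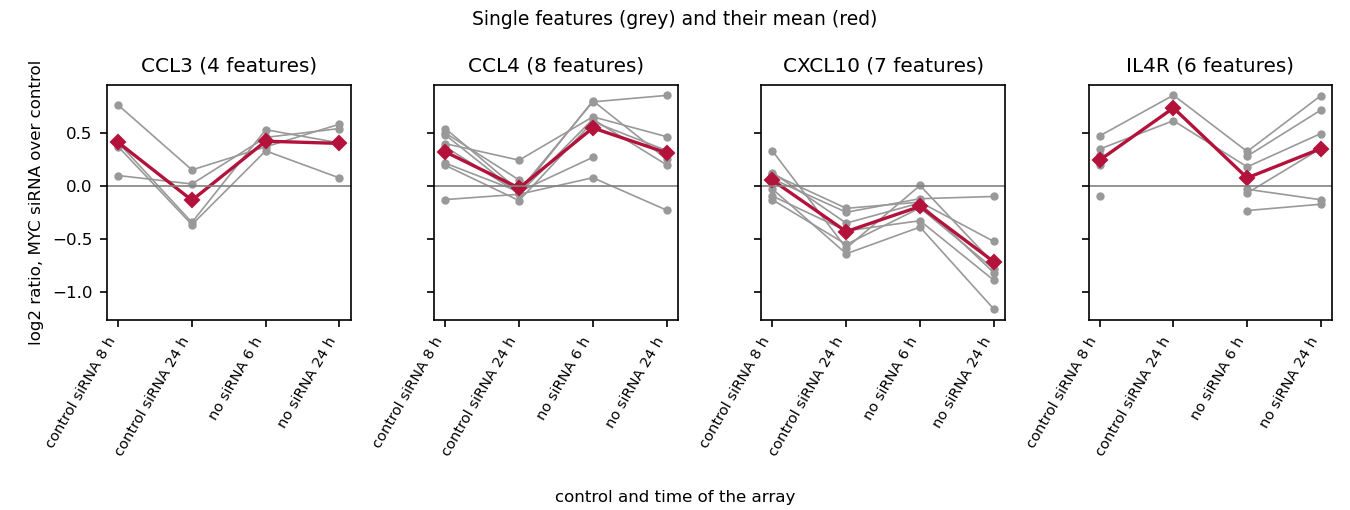
Log2 ratio of MYC siRNA over control (y axis) of each single feature (grey) and their mean (red) on the 4 arrays, for CCL3, CCL4, CXCL10 and IL4R. Lower at 24 h than at the early time lie 7 of 7 features of CXCL10 against control siRNA and 6 of 7 against no siRNA. For CCL3 the counts are 4 of 4 against control siRNA and 2 of 4 against no siRNA. For CCL4 they are 7 of 8 and 5 of 6.

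Of 12 chemokine receptor genes, 0 passed in limma and 1 had an unadjusted p under 0.05 (8.33%, against 31.7% of all rows). Their median was 0.12. CXCR5, which guides B cells into follicles, gave 0.22 and 0.16 against control siRNA and 0.22 and 0.11 against no siRNA, early time first. All arrays were above 0, with a mean of 0.18 (adjusted p = 0.179, limma). Its ligand gene CXCL13 had arrays on both sides of 0, from -0.23 to 0.48.

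CCR7, the receptor that leads lymphocytes to T-cell zones, gave 0.57 and 0.36 against control siRNA, and -0.16 and 0.42 against no siRNA, early time first. The 6 h array alone lay below 0, and the mean was 0.30 (adjusted p = 0.139, limma). These means mixed features, since 2 of its 4 features had values on the control siRNA arrays only. The single feature with values on every array gave 0.13, 0.28, 0.01 and 0.77.

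CXCR4, which retains B cells in bone marrow and in the dark zone of germinal centres, was read by 8 features. It gave -0.12 and 0.28 against control siRNA, and 0.06 and 0.27 against no siRNA, early time first, around a mean of 0.12 (adjusted p = 0.423, limma). CCR6, a receptor for CCL20, and CCR1, a receptor for CCL3, had means of 0.11 and 0.17, each with 1 array below 0.

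None of the 7 TNF superfamily ligands passed in limma, and 3 had an unadjusted p under 0.05 (42.9%, against 31.7% of all rows). Their median was 0.15. TNFSF10, which encodes the death ligand TRAIL, gave 0.85 and 0.78 against control siRNA at 8 h and 24 h, but 0.10 and 0.09 against no siRNA at 6 h and 24 h. The arrays against control siRNA lay far above the others at both times (mean 0.45 ± 0.42, SD, n = 4, adjusted p = 0.0772, limma).

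TNFSF13 and TNFSF13B encode APRIL and BAFF, the survival factors of plasma cells and mature B cells. TNFSF13 gave 0.55 and 0.43 against control siRNA, and 0.08 and 0.16 against no siRNA, early time first. TNFSF13B gave -0.37 and -0.06 against control siRNA, and -0.35 and -0.32 against no siRNA. The related ligands lay on opposite sides of 0 on every array, with means of 0.31 and -0.27, neither of which passed (adjusted p = 0.0889 and 0.0870, limma).

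Of 15 TNF receptor superfamily genes, 1 rose (TNFRSF11B), 0 fell and 14 did not pass, and their median was 0.00. The share called was 6.67%, against 9.23% of all rows. TNFRSF1A, the widely expressed TNF receptor with a death domain, gave -0.36 and -0.23 against control siRNA, and -0.15 and -0.55 against no siRNA, early time first. All arrays were below 0, with a mean of -0.32 (adjusted p = 0.0643, limma). It passed when rows with missing values were left out (mean -0.32 on the same 4 arrays).

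Receptors for BAFF and APRIL had means near 0. TNFRSF17, the receptor BCMA, ranged from -0.22 to 0.31 with a mean of 0.05, and TNFRSF13C, the BAFF receptor, had only the arrays against control siRNA, at 0.31 and -0.26. TNFRSF8, the activation antigen CD30, had a mean of 0.00, and TNFRSF14, the receptor HVEM, had a mean of 0.19 with arrays from -0.20 to 0.71.

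The arrays differed by kind of control and by time, so both were also tested as 2 terms of 1 limma model on rows with 4 values. For 24 h against the early times, 0 of 97 genes passed (0.118% of all rows, 0.0883% lower and 0.0294% higher) and 5 had an unadjusted p under 0.05, beside 10.1% of all rows. For control siRNA against no siRNA, 1 of 97 passed, beside 0.0883% of all rows, and 10 had an unadjusted p under 0.05, beside 10.1% of all rows. Each combination of control and time was 1 array, which left 1 residual degree of freedom. The spread of each gene thus rested mostly on the spread pooled over all rows.

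TNFRSF1B, the TNF receptor of lymphocytes, was the gene that passed. It gave 0.69 and 1.14 against control siRNA at 8 h and 24 h, and -0.42 and 0.04 against no siRNA at 6 h and 24 h. Both arrays against control siRNA lay above both others, with means of 0.92 and -0.19. The difference was 1.11 ± 0.18 (SE, adjusted p = 0.0258, limma). TNFRSF1B had features with missing values, and on its 1 feature with 4 values the difference was 1.30 (adjusted p = 0.00316, limma). The call was lost with the arrays brought to 1 scale (adjusted p = 0.589, limma) and with control as the only term (adjusted p = 0.556, limma).

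TNFSF10 followed in size, at 0.81 against control siRNA and 0.10 against no siRNA, a difference of 0.72 ± 0.18 (SE, adjusted p = 0.109, limma). IL27RA, a receptor chain for interleukin-27, differed by 0.61, IL4 by 0.59 and CCL18, a chemokine of alternatively activated macrophages, by 0.54. IL13 differed the other way, by -0.59 (adjusted p = 0.177, limma). Kind of control went with the numbering of the arrays in the labels, so control and experiment cannot be told apart.

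By time, IL37, an anti-inflammatory member of the interleukin-1 family, had the largest difference, from -0.09 at the early times to 0.52 at 24 h (adjusted p = 0.250, limma). CXCL10 went from -0.07 to -0.58, a difference of -0.50 (adjusted p = 0.316, limma). CXCL13 and CCL7 differed by 0.48 and 0.42. The 2 features of IL37 had no value on 1 array each, so its array means do not rest on the same features.

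**Figure D4:**
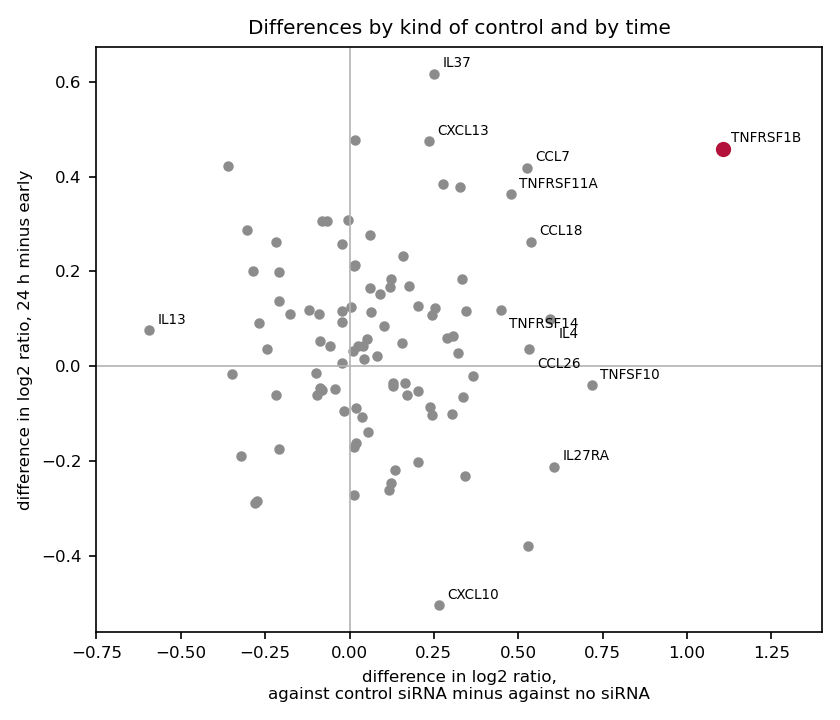
Difference in log2 ratio between arrays against control siRNA and against no siRNA (x axis) and between 24 h and early arrays (y axis) for the 97 genes with 4 values. TNFRSF1B, in red, is the gene past the test for control, IL13 lies farthest left, and CXCL10 lies lowest.

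Other genes of cytokine signalling, which the symbol rule does not take, were counted in the same test. The 23 measured genes of cytokine receptor signalling included JAK, STAT, SOCS and PIAS genes, further receptor chains and the cytokine subunit gene EBI3. Only EBI3 rose and 0 fell, with a median of 0.10, and none of the JAK, STAT, SOCS and PIAS genes passed. The share called was 4.35%, against 9.23% of all rows. Of the 23, 5 had an unadjusted p under 0.05 (21.7%, against 31.7% of all rows). EBI3, the subunit shared by interleukins 27 and 35, gave 0.49, 0.29, 0.37 and 0.59, all above 0, with a mean of 0.43 ± 0.13 (SD, n = 4, adjusted p = 0.0319, limma). SOCS3, a feedback inhibitor of STAT signalling, had a mean of 0.36 that did not pass (adjusted p = 0.0580, limma).

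Among 18 adaptors of TNF and interleukin-1 receptors, 0 passed in limma, with a median of 0.04. An unadjusted p under 0.05 was found for 7 (38.9%, against 31.7% of all rows). The kinase gene RIPK2 had a mean of -0.35 and the adaptor gene TRAF5 a mean of 0.30. Among 10 TNF superfamily genes under other symbols, 0 passed and 0 had an unadjusted p under 0.05. Their median was -0.003, and 5 of the 10 means lay above 0. CD40 had a mean of 0.12, TNF 0.07 and LTA 0.05, while FASLG had -0.15, FAS -0.09 and LTBR -0.08. Of 8 chemokine system genes under other symbols, 0 passed in limma and 1 had an unadjusted p under 0.05 (12.5%). Their median was -0.09.

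Markers of other cells were read in the same way. Of 8 T-cell marker genes, 0 passed, 7 had means above 0 and the median was 0.19. The medians were 0.02 for 6 B-cell, 0.06 for 4 natural killer, 0.03 for 3 monocyte and 0.00 for 2 erythroid marker genes. None of these passed in limma. At an unadjusted p under 0.05 stood 3 of the T-cell (37.5%), 3 of the B-cell (50%) and 0 of the other marker genes, against 31.7% of all rows. Their part in the cytokine values was not tested.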

How the data were processed

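The authors deposited 1 value per feature and array, signed and centred near 0, which was taken as a log2 ratio of Cy5 (MYC siRNA) over Cy3 (control), per the labels. How arrays were normalized or background-corrected, the log base, the sign and why cells are empty is not given in the sources used here. Features were named through the platform annotation, updated by Entrez ID against RefSeq (GRCh38.p14), and features of 1 gene measured on an array were averaged there. Rows with a value on at least 2 arrays (8509) were tested against 0 with limma 3.58.1 (lmFit and eBayes, R 4.3.3), with Benjamini-Hochberg adjustment over all rows and a threshold of 0.05. Time and kind of control were 2 terms of 1 model on the 6798 rows with 4 values. The script was tested on simulated data. Labels do not say that the arrays came from separate cultures, so p-values reflect only spread seen on these arrays, whose number limits the precision. In limma the spread of each gene was also drawn toward a spread pooled over all rows. For the mean over 4 arrays there were 6.02 prior beside 3 residual degrees of freedom. For the time and control terms there were 17.5 beside 1, so their spread rests mostly on the pooled value.

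The members and lists were chosen with earlier results of these data known. Genes named by rule were all members past the threshold, the 3 largest means per role among genes with values on all 4 arrays, up to 5 each way by time and by control, and members known from B cells. Relatives of these (CXCL1, CXCL5, CXCL9, CXCL11, IL2RB, IL13RA1, IL18R1, IL18RAP, CCL2) and the signalling genes given by name were chosen after their values were seen.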

Additional observations from a re-analysis of the deposited data

Results flagged for a closer look

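Of 42 named genes with 4 values, 4 had 1 array far from the other 3, by the gap relative to the range; chance marks about 1 in 20 such genes. IL13RA2 stood at 0.982 on the no siRNA array at 24 h, above the other arrays. TNFRSF8 stood at 0.169 on that same array, where the others lay just below 0. On the control siRNA array at 24 h, TNFSF13B stood at -0.06 and CCL3 at -0.1375, away from the other 3 arrays of each gene. TNFRSF1B differed by kind of control, by 1.10625 between arrays against control siRNA and against no siRNA, by a limma term with an adjusted p of 0.0258.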

How the results depend on the processing

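Of the 5 genes called with MYC siRNA, all 5 were kept with arrays centred, with arrays centred and scaled (6 called, beside 12.4% of all rows) and with robust moderation. On rows with 4 values, 4 were kept of 5 called, since IL18 had 3 arrays. The count was 9 of 95 on features with values on all arrays (9.47%, against 17.4% of all rows). It was 27 of 296 when features were tested singly (9.12%, against 11.3%) and 22 of 97 with time and control as terms (22.7%, against 29.1%). With these terms CXCL5, CXCL10, TNFRSF1A and TNFSF13B also passed as lower. CXCL11, CCL3, CCL4, CCL7, CCR7, IL1RAP, IL3RA, IL4R, IL11RA, IL13RA2, TNFRSF1B, TNFRSF11A, TNFSF10 and TNFSF13 also passed as higher. Unadjusted the main count was 31 (27.0%, against 31.7% of all rows). At an adjusted p under 0.10 it was 15, for which the share of all rows is not given here. Leaving out each array in turn gave 0 to 0. The time count of 0 became 1 with single features (0.481%, against 0.728% of all features) and 5 unadjusted (beside 10.1% of all rows). The control count of 1 became 0 with arrays scaled and 0 with control as the only term. It became 3 with single features (1.44%, against 0.561% of all features) and 10 unadjusted (beside 10.1% of all rows). Looser thresholds give the unadjusted and 0.10 counts by construction, and for the others the cause was not tested. The 5 called means kept their sign, but 7 of the 45 named genes, none of them called, changed sign with an array left out (CXCL8, CXCL13, CCL18, IL6R, IL27RA, TNFRSF8 and TNFRSF17). On features with 4 values CXCL8 had a mean of -0.05, and the control difference of CCR7 went from 0.33 to -0.19. Each array already pairs MYC siRNA with its control, and the labels give no replicate numbers for a further block. There was no dye swap, so dye effects on single genes cannot be told apart from siRNA effects.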

Other observations

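Features of 1 gene often went different ways. Of 80 members with several features, 35 (43.8%) had features of 1 sign, against 46.0% of 2447 named genes. The 27 single features that passed in limma belonged to 24 genes, with 8 lower and 19 higher. CCL2, a monocyte attractant, was the only one of these called in both directions: 1 feature gave -0.40, -0.32, -0.47 and -0.50 on the 4 arrays, and another gave 1.27, 0.64 and 0.50 on 3. The remaining feature stayed between 0.04 and 0.09. The gene's averaged ratio of 0.06 thus matched none of the called features.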
